A study of Mus musculus with 8 samples.

Results

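The genes described here are 39 mouse members of cytochrome P450 families 1 to 4, and the measurement is how often each took part in a chromatin loop recovered with REV-ERBα in liver. The 39 names were matched to RefSeq's GRCm38.p6 annotation, 1 of them (Cyp2c44) through its RefSeq symbol Cyp2c23, and stand among 21887 protein-coding genes in all. A loop belonged to a gene when an anchor overlapped the gene body or the 5 kb on either side. Over the 6 libraries 190 of 277517 listed loops met that rule, and a loop at several members was counted once in any sum.

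The libraries came from in-situ ChIA-PET on mouse liver, in which nuclei were fixed, cut with AluI and religated before an anti-HA pulldown, so that a paired-end tag (PET) joins 2 places that lay together near the tagged protein. One knock-in library at zeitgeber time ZT22 and 1 at ZT10 came from mice labelled REV-ERBa3HA/3HA, which carry the tagged receptor at its own gene and received no virus. The other 4 libraries, all at ZT10, came from REV-ERBaf/fREV-ERBbf/f mice, with both receptor genes floxed, that were given AAV8-TBG-Cre. Along with it, 2 libraries had AAV8-TBG-3HA-REV-ERBa-WT (called WT below) and 2 had AAV8-TBG-3HA-REV-ERBa-delhIDR (called dhIDR). TBG is a hepatocyte promoter, so the AAV libraries report receptor expressed from a transgene in hepatocytes, whereas the knock-in libraries report the receptor wherever the liver makes it. Neither ages nor sexes are stated in what was used here. The labels do not state whether libraries of 1 group had separate animals as their source, so each p-value below reflects spread between libraries that may be technical. The 2 anti-CTCF samples of the series were not analysed here.

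Cytochromes P450 are haem enzymes of the endoplasmic reticulum that insert oxygen into drugs, pollutants, steroids, bile acids and fatty acids, taking electrons from P450 oxidoreductase. Hepatocytes express most members of families 1 to 4, many of which sit in tandem clusters of close paralogs and answer to ligand-activated receptors such as AhR, CAR, PXR and PPARα. REV-ERBα (Nr1d1) is a haem-binding repressor of the circadian clock that reaches DNA through the hexamer AGGTCA, best with the A/T-rich flank of the ROR response element, or through other factors, and its protein is abundant by day around ZT10 and low at night around ZT22.

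Listed PETs numbered from 104161 to 320427 per library, and the lowest count listed for a loop was 3. The rule by which loops were listed is not given, so the PETs of an unlisted loop are unknown. A library's listed total does not measure its sequencing depth. The ZT10 knock-in library stands apart from the other 5. Its median loop spanned 40.1 kb against 524 to 1071 kb, and its median anchor was 1067 bp wide against 601 to 626 bp. Hepatocyte markers took 48.9 of every 10,000 listed PETs at ZT10 against 1.81 at ZT22, with Fga, Apoa1 and Ttr leading. Fga alone had 1022 ZT10 PETs where the whole list had 1566. Of the 6 hepatocyte markers, 5 had a PET at ZT10 and 4 at ZT22. Kupffer markers took 0.0936 against 2.19, and stellate markers 0.718 against 5.35. Endothelial markers took 3.62 against 2.11, cholangiocyte markers 0.999 against 1.36 and lymphocyte markers 1.25 against 1.58. In the 4 AAV libraries the hepatocyte list took 0.392 to 1.91, and the Kupffer list 0.864 to 2.55. At ZT10 1 of 5 Kupffer markers had a PET (Timd4, 3), and Marco and Vsig4 had 0. These values are loops at marker genes, not RNA. These differences in span, width and marker share move with each ZT10 result below, and their part in the results was not tested. In liver samples fewer cells of a type and fewer contacts per cell cannot be told apart.

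The sequences that frame the promoter results are the 250 bases upstream of 6 start sites, from RefSeq's GRCm38.p6 promoter table, written 5′ to 3′ on the gene's own strand. Cyp3a11 (chr5:145879855-145880104, minus strand), Cyp3a25 (chr5:146009618-146009867, minus) and Cyp3a16 (chr5:145469724-145469973, minus) are paralogs of 1 cluster that differ in motif and in loops. Cyp2d26 (chr15:82794246-82794495, minus) had the most PETs at its start. Cyp2b9 (chr7:26173159-26173408, plus) and Cyp2b10 (chr7:25897408-25897657, plus) lie in 1 cluster, with Cyp2b13 between them, and Cyp2b9 holds the hexamer while Cyp2b10 holds the start loops. Capitals mark the hexamer AGGTCA on either strand, and in Cyp3a11 the ROR response element that contains it.
Cyp3a11: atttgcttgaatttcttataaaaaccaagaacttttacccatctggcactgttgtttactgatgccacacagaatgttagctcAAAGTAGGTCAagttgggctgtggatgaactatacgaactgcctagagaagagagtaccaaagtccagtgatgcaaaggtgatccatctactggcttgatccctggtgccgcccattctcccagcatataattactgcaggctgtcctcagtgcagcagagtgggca
Cyp3a25: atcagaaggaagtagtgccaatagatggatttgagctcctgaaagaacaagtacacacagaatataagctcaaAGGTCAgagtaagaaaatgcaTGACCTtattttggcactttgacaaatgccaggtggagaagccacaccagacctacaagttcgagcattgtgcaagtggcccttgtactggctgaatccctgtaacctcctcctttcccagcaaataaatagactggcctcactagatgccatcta
Cyp3a16: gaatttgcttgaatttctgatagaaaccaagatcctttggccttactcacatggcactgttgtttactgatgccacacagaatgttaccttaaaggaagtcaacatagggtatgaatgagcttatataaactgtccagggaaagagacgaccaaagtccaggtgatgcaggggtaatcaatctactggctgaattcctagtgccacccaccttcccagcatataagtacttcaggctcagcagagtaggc
Cyp2d26: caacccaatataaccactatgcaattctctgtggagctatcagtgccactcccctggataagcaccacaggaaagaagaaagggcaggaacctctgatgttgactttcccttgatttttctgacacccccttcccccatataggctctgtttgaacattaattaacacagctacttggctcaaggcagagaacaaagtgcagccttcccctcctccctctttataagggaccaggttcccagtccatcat
Cyp2b9: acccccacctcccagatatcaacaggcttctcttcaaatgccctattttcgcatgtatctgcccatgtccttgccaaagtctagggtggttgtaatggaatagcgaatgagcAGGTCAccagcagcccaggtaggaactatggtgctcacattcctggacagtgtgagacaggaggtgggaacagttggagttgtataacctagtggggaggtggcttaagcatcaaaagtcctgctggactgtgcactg
Cyp2b10: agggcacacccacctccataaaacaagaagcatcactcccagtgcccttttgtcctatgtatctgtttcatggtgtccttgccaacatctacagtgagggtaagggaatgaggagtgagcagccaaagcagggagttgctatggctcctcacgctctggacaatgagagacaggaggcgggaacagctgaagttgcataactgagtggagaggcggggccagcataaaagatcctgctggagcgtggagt

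Of the 32 members with a start in that table, 11 (34.4%) held AGGTCA on either strand between 250 bases before and 50 after a start, against 16.7% of 17492 genes. The ROR response element was searched on both strands with AGGTCA or GGGTCA at its end, so a match need not hold the hexamer. It lay in 1 member, Cyp3a11, at position -167 from the start, and in 48 genes of all (0.274%). Cyp3a25 held the hexamer on each strand, at -177 and -156, while Cyp3a16 held none. Cyp2b9 and Cyp2b13 each held the hexamer in upstream sequences that were identical at 248 of 250 bases. The E-box CACGTG was in no member and in 8.91% of genes, and the D-box (TTAT or TTAC followed by GTAA) was in no member and in 1.19%. A direct repeat of the hexamer with 2 bases between was in no promoter of the table. All were searched on both strands. Of 14 members looped at their start at ZT10, 4 held the hexamer, and of the 18 others 7 did. A match describes these letters only.

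Across the knock-in livers the P450 genes were looped mostly at ZT10. At ZT10 28 of 39 members had a listed PET, where 52.1% of all genes did, and at ZT22 12 of 39 did, where 58.5% of all genes did. The loops numbered 110 with 497 PETs at ZT10 and 16 with 49 PETs at ZT22. As a share of listed PETs this was 15.5 per 10,000 at ZT10 (95% exact binomial interval 14.2 to 16.9) and 3.69 at ZT22 (2.73 to 4.88), a ratio of 4.20 (3.13 to 5.76). With 1 library at each time there is no replicate check, and the intervals cover counting error only. PETs were more numerous at ZT10 than at ZT22 at 25 members, equalled it at 1 (Cyp2b13, 3 and 3), lay below it at 3, and were 0 at both times at 10. The 3 below were Cyp2c55 with 9 PETs at ZT10 and 12 at ZT22, Cyp4f14 with 4 and 6, and Cyp2c70 with 0 and 3. These are raw counts from libraries with 320427 listed PETs at ZT10 and 132709 at ZT22. As a share of listed PETs, Cyp2b13 and Cyp2j5 (6 and 4 PETs) also lay lower at ZT10. The same tally was not made over all genes.

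**Figure D1:**
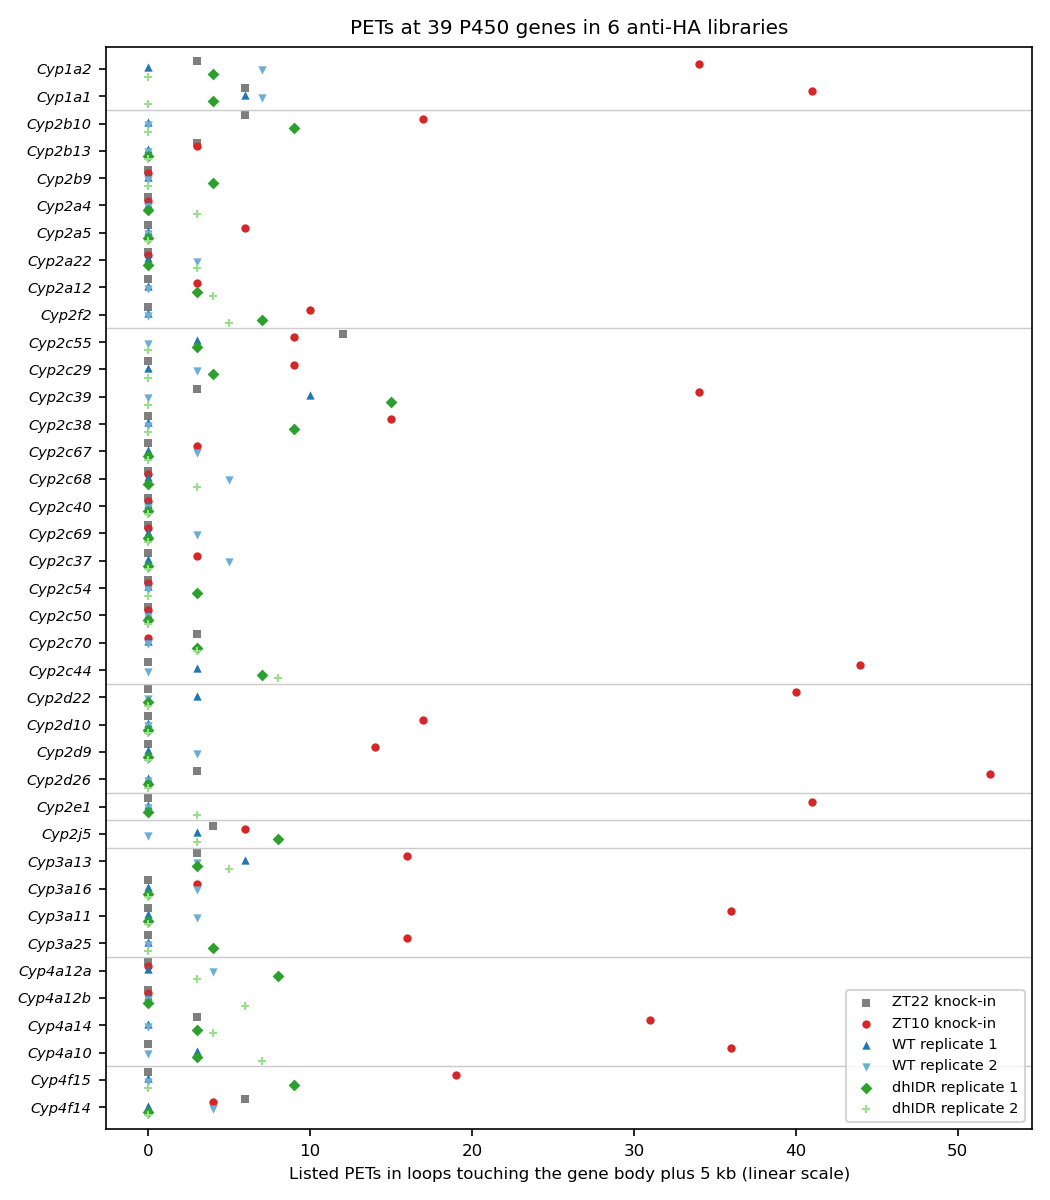
Listed PETs (x axis, linear) in loops that touch each of the 39 P450 genes (y axis, grouped by cluster and ordered by position within a cluster), 1 symbol per library. The ZT10 knock-in circles reach 52 PETs at Cyp2d26 while no other library passes 15 at any member.

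At least 30 PETs over both knock-in libraries were listed at 10 members. Each of the 10 reached that number through ZT10, with 31 to 52 PETs there and 0 to 6 at ZT22, so the filter itself set the direction and their count is no support for it. The ratios per gene below, with their intervals, are for these 10 only. The same filter favours values above 1 there, so they are descriptions. As a description, the share of listed PETs was at least 2-fold higher at ZT10 in the 10 and higher at ZT22 in none, where 57% and 22.8% of the 3721 genes with that many PETs were. From 10 PETs up, 15 of 21 members were at least 2-fold higher at ZT10. At ZT22 2 were, Cyp4f14 (log2 ratio -1.86) and Cyp2c55 (-1.69). Among the 8618 genes with that many PETs, 41.4% were higher at ZT22 and 32.0% at ZT10. The order over all genes thus turned with the minimum. Relative to the median log2 ratio of 1.46 over the 3721 genes, 4 of the 10 were at least 2-fold higher at ZT10 and 0 at ZT22. Among the 3721 genes 30.1% and 36.0% were. Of the 10, 5 had no ZT22 PET, and for these the ratio was taken against a floor of 3 PETs. That floor is the lowest count listed for 1 loop, and unlisted loops of a gene could together exceed it. For 0 PETs the 95% Poisson upper limit is 3.69, so these ratios are not firm lower bounds and have no interval. Restricted to loops with both anchors at least 700 bp wide, of which ZT22 listed none at these genes, 0 of the 7 members that reached 30 PETs kept a ratio of 2-fold. ZT22 listed 16350 PETs in such loops against 268106 at ZT10, which raises the share that the floor stands for.

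Family 1 holds Cyp1a1 and Cyp1a2, targets of the aryl hydrocarbon receptor that oxidise polycyclic aromatic hydrocarbons and, for Cyp1a2, caffeine and aromatic amines. Cyp1a1 (chr9:57687928-57703824) had 6 PETs at ZT22, 41 at ZT10, 6 and 7 under WT, and 4 and 0 under dhIDR. Its ZT10 share was 2.83-fold that at ZT22 (95% counting interval 1.19 to 8.16), which is 0.04 on the log2 scale above the median gene. Cyp1a2 (chr9:57676937-57683655) had 3 PETs at ZT22, 34 at ZT10, 0 and 7 under WT, and 4 and 0 under dhIDR, with a share 4.69-fold higher at ZT10 (1.48 to 23.9). The ZT10 library was the highest of the 6 for both genes, and WT and dhIDR values overlapped for Cyp1a2. These neighbours share loops, so together they held 51 PETs in 12 loops at ZT10. With a 2 kb window Cyp1a1 had 27 ZT10 PETs and Cyp1a2 15. The other end of 7 of these loops, with 30 PETs, lay at Edc3, the next gene along, which encodes a factor of mRNA decapping. One Cyp1a1 loop was the only member loop found at both anchors in a second library. It joined chr9:57698285-57699932 to chr9:57707715-57709750 with 7 PETs at ZT10, and lay at chr9:57698512-57699066 and chr9:57708880-57709467 with 3 PETs in WT replicate 1.

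The Cyp2d cluster held the most PETs of any group at ZT10, 123 in 21 loops, against 3 in the ZT22 library, 3 in each WT library and 0 in each dhIDR library. Its share at ZT10 was 3.84 per 10,000 listed PETs (3.19 to 4.58) and at ZT22 0.226 (0.0466 to 0.661). Cyp2d26 (chr15) led all members with 52 PETs at ZT10, 3 at ZT22 and 0 in all 4 AAV libraries, a share 7.18-fold higher at ZT10 (2.32 to 35.9). Its strongest loop spanned 87.2 kb from its start (chr15:82792797-82796250) to an interval with no protein-coding gene within 5 kb (chr15:82706055-82708549) and had 19 PETs. A second, of 9 PETs over 21.4 kb, ended at Cyp2d40. All 4 loops at the Cyp2d26 start ran downstream, toward the rest of the cluster. Cyp2d22, often set beside the human drug-metabolising CYP2D6, had 40 PETs at ZT10, 3 in WT replicate 1 and 0 in the other 4 libraries. Against the floor of 3 PETs at ZT22, its ZT10 share was 5.52-fold higher. Cyp2d22 looped over 24972 bp to Ndufa6 and Smdt1 with 10 PETs. Cyp2d10 had 17 PETs at ZT10 and 0 elsewhere, 14 of them in 1 loop of 11.2 kb at its start. Cyp2d9, a male-predominant testosterone hydroxylase, had 14 at ZT10 and 3 in WT replicate 2, and its 14 fell to 0 with a 2 kb window. The 4 members thus ranked high per length too, with 36.2 PETs per 10 kb of window at Cyp2d26, 20.3 at Cyp2d22, 11.8 at Cyp2d10 and 9.69 at Cyp2d9, where the median gene had 0.234.

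Cyp2e1, which oxidises ethanol and paracetamol, held the single strongest loop within 5 kb of the 39 genes. It had 41 PETs in 6 loops at ZT10, 0 at ZT22, 0 and 0 under WT, and 0 and 3 under dhIDR. Against the floor of 3 PETs at ZT22, its ZT10 share was 5.66-fold higher. The strongest loop had 24 PETs and spanned 39.3 kb, from chr7:140716786-140719494, where no protein-coding gene lies within 5 kb, to chr7:140755859-140759110. No loop touched the window from 250 bases before to 50 after its start. That near anchor lay upstream of the start, mostly beyond the 5 kb flank, and overlapped only the flank's outer edge. With 2 kb on either side the loop falls outside the gene's window, and Cyp2e1 has 14 PETs at ZT10.

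The Cyp3a cluster encodes steroid and drug hydroxylases, of which Cyp3a11 is a standard PXR target. Cyp3a11 had 36 PETs at ZT10, 0 at ZT22, 0 and 3 under WT, and 0 and 0 under dhIDR. Against the floor of 3 PETs at ZT22, its ZT10 share was 4.97-fold higher. Only the ZT10 library was high. The 2 strongest Cyp3a11 loops left the start region printed above and ran upstream, 16 PETs over 32.5 kb to chr5:145911200-145914301 and 11 PETs over 17.9 kb to chr5:145896028-145899373. Both far intervals had no protein-coding gene within 5 kb. In all 30 of its 36 PETs had an anchor at the start. Cyp3a25 had 16 PETs at ZT10 and 4 in dhIDR replicate 1, with loops of 3 PETs running upstream from its start. Cyp3a16, a perinatal and female-predominant form, had 3 PETs at ZT10, in a 1805 kb loop to Pdx1, and 3 in WT replicate 2. Cyp3a13, which lies apart from the cluster, was the only Cyp3a gene with PETs in all 6 libraries, 3 at ZT22, 16 at ZT10, 6 and 3 under WT, and 3 and 5 under dhIDR.

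**Figure D2:**
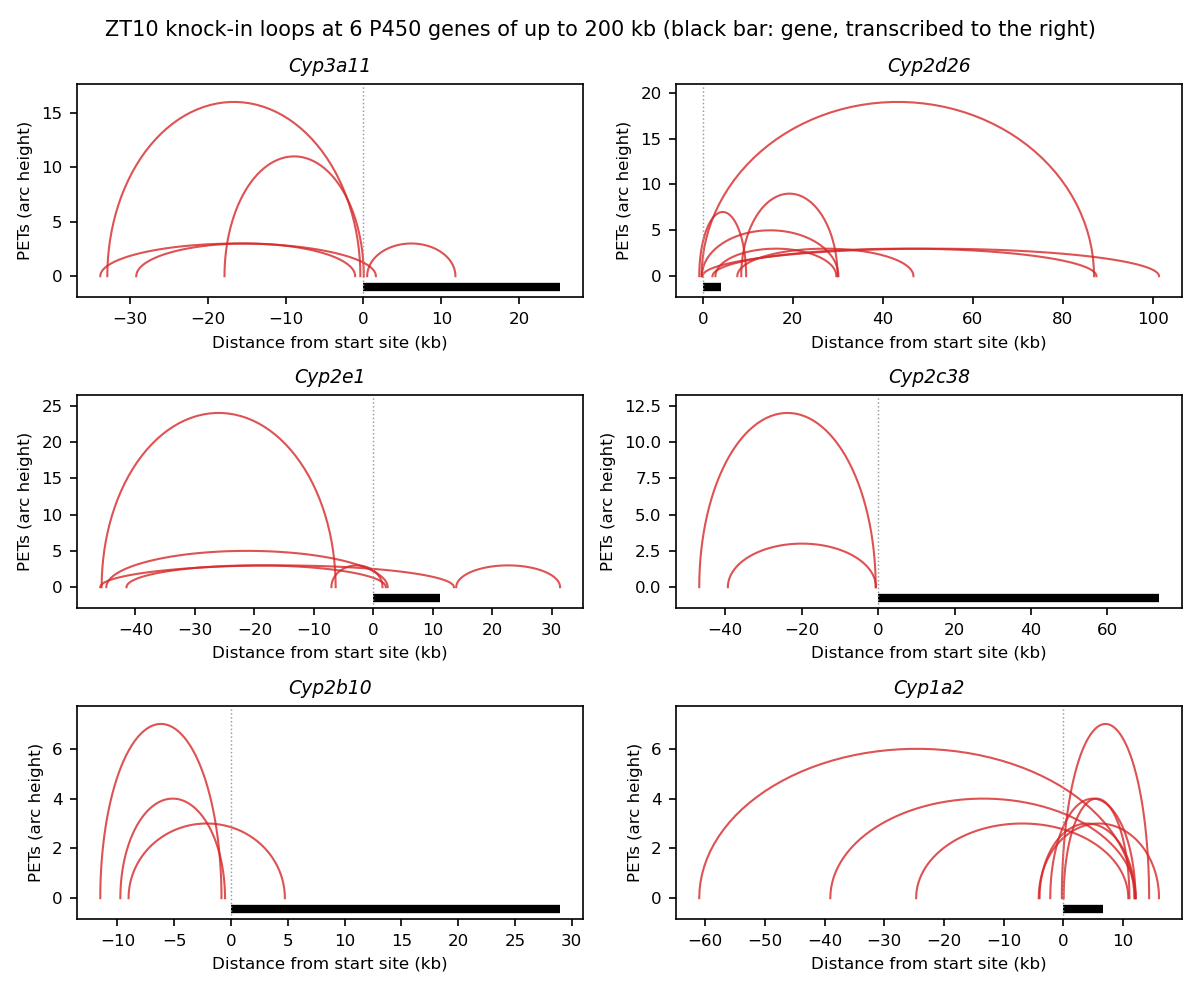
Loops of up to 200 kb at 6 P450 genes in the ZT10 knock-in library, drawn as arcs between anchor centres at their distance from the start site in kb (x axis), with arc height equal to PETs (y axis). At Cyp3a11, Cyp2c38 and Cyp2b10 the strongest arc runs upstream from the start, at Cyp2d26 it runs downstream with 19 PETs, and at Cyp2e1 the 24-PET arc ends upstream of the start.

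The Cyp4a enzymes hydroxylate the end of fatty acid chains and follow PPARα. Cyp4a10 had 36 PETs at ZT10, 0 at ZT22, 3 and 0 under WT, and 3 and 7 under dhIDR. Against the floor of 3 PETs at ZT22, its ZT10 share was 4.97-fold higher. Cyp4a14 had 31 PETs at ZT10, 3 at ZT22, 0 and 0 under WT, and 3 and 4 under dhIDR, 4.28-fold higher in share (1.34 to 21.9). The neighbours looped to each other, 24.4 kb apart with 8 PETs, and Cyp4a14 looped 68.8 kb to Cyp4a31 with 8 PETs. Cyp4a31 was the partner in 5 loops with 20 PETs and Cyp4a32 in 2 loops with 7. Cyp4a12a and Cyp4a12b, male-predominant forms with Cyp4a12a a producer of 20-HETE, lay in the same cluster and had no PET in either knock-in library. Cyp4a12a had 0 and 4 PETs under WT and 8 and 3 under dhIDR, and Cyp4a12b had 6, in dhIDR replicate 2 alone.

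The Cyp2c genes, which include epoxygenases of arachidonic acid, were looped unevenly along chromosome 19. Cyp2c44 lies apart from the main array, at chr19:44005022-44029256, and had the most, 44 PETs at ZT10. It had 0 at ZT22, 3 and 0 under WT, and 7 and 8 under dhIDR. Against the floor of 3 PETs at ZT22, its ZT10 share was 6.07-fold higher. Its loops ended at Cpn1, a plasma carboxypeptidase subunit, in 7 cases with 26 PETs, and at Erlin1 in 5 with 18. In the main array Cyp2c39 had 34 PETs at ZT10, 3 at ZT22, 10 and 0 under WT, and 15 and 0 under dhIDR, with a share 4.69-fold higher at ZT10 (1.48 to 23.9). The RefSeq body of Cyp2c39 encloses Cyp2c38, so all 15 ZT10 PETs of Cyp2c38, which otherwise had 9 in dhIDR replicate 1, are among those 34. A 46.2 kb loop with 12 PETs joined the starts of the pair, 1 of 2 P450 loops at ZT10 with a start at both ends. Beyond Cyp2c39 the array was nearly empty. Cyp2c67 and Cyp2c37 had 3 PETs each at ZT10 and, in WT replicate 2, 3 and 5, and Cyp2c68, Cyp2c40, Cyp2c69, Cyp2c54, Cyp2c50 and Cyp2c70 had 0 at ZT10. In the AAV libraries Cyp2c68 had 5 in WT replicate 2 and 3 in dhIDR replicate 2, Cyp2c69 had 3 in WT replicate 2, and Cyp2c54 had 3 in dhIDR replicate 1. Cyp2c70, which makes muricholic acids, had 3 PETs at ZT22 and 3 in each dhIDR library. Cyp2c40 and Cyp2c50 had 0 in all 6 libraries. At the other edge of the array Cyp2c29, a CAR-responsive form, had 9 PETs at ZT10, 0 at ZT22, 0 and 3 under WT, and 4 and 0 under dhIDR. Cyp2c55 had, beside the 9 and 12 given above, 3 in WT replicate 1 and 3 in dhIDR replicate 1.

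In the Cyp2a/2b/2f2 cluster the ZT10 library held 39 PETs and the ZT22 library 9, shares of 1.22 (0.866 to 1.66) and 0.678 (0.310 to 1.29) per 10,000 whose intervals overlapped. Cyp2b10, the standard CAR target, had 17 PETs at ZT10, 6 at ZT22, 0 and 0 under WT, and 9 and 0 under dhIDR. At ZT10 2 of its loops ran upstream from the start printed above, with 7 PETs over 10.7 kb and 4 PETs over 9.22 kb, while both ZT22 loops spanned 897 kb or more. Cyp2f2, which activates naphthalene, had 10 at ZT10, 0 at ZT22, 0 and 0 under WT, and 7 and 5 under dhIDR. The coumarin hydroxylase Cyp2a5 had 6 PETs at ZT10 and 0 elsewhere, and Cyp2a12 had 3 at ZT10 and 3 and 4 under dhIDR. Cyp2a4, Cyp2a22 and the female-predominant Cyp2b9 had none in the knock-in libraries. Cyp2a4 had 3 in dhIDR replicate 2, Cyp2a22 had 3 there and 3 in WT replicate 2, and Cyp2b9 had 4 in dhIDR replicate 1.

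Cyp4f15 and Cyp4f14 belong to the enzymes that inactivate leukotriene B4. Cyp4f15 had 19 PETs at ZT10, 0 at ZT22, 0 and 0 under WT, and 9 and 0 under dhIDR, and reached Cyp4f37 in 2 loops with 10 PETs. Its ZT10 count was 9 with a 2 kb window. Cyp4f14, lower at ZT10 than at ZT22, had 4 in WT replicate 2. Cyp2j5, another epoxygenase, had 4 PETs at ZT22, 6 at ZT10, 3 and 0 under WT, and 8 and 3 under dhIDR, and no library stood out.

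**Figure D3:**
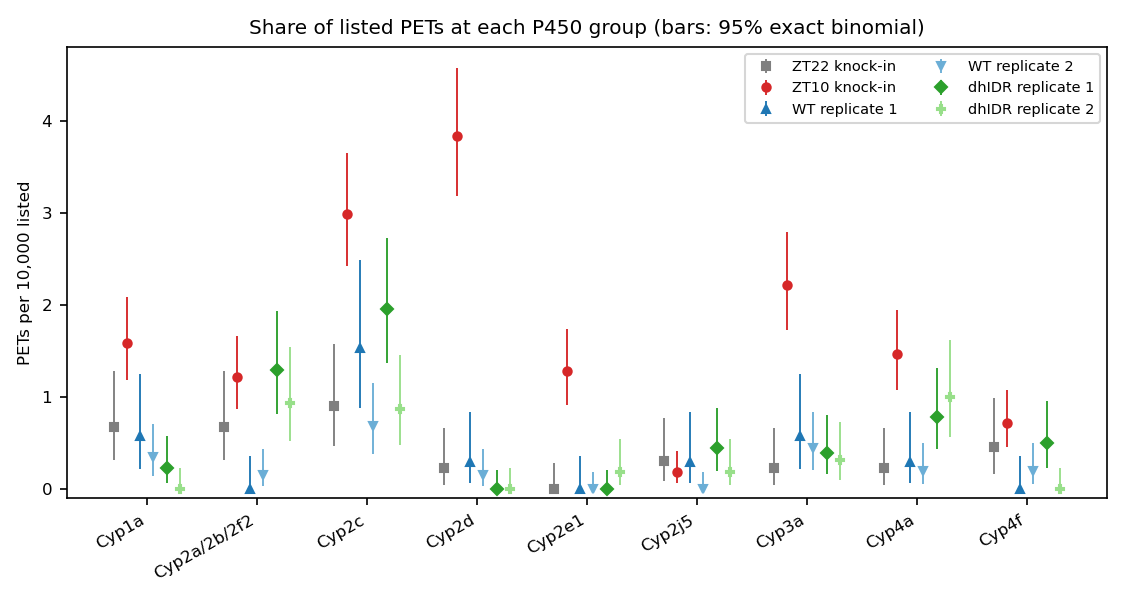
PETs per 10,000 listed (y axis, linear) at each P450 group (x axis) in the 6 libraries, with 95% exact binomial intervals that cover counting error only. The ZT10 knock-in share is 3.84 at Cyp2d and its interval lies above those of the other 5 libraries at Cyp2d, Cyp2e1 and Cyp3a.

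The ZT10 loops of the P450 genes were short. Their median span was 35.5 kb, and 90 of 110 (81.8%) spanned under 100 kb, against 40.1 kb and 72.8% for all loops of that library. They were no stronger than others, with a mean of 4.52 PETs against 5.54 and with 25 loops (22.7%) of at least 5 PETs against 28.3%. Both anchors lay at members in 21 loops, several of them with both at the same gene, and at some P450 gene in 36. In 43 loops 1 anchor had no protein-coding gene within 5 kb, and other gene types were not looked up. The like counts were not made over all loops of the library. At a start site, 14 of 32 members (43.8%) had a ZT10 loop against 20.0% of 17492 genes, and the partner lay upstream of the start in 15 cases and downstream in 15. In the other 5 libraries a P450 loop held at most 4 to 9 PETs, and median spans ran from 341 kb in WT replicate 1 to 2355 kb in dhIDR replicate 2. No ZT10 loop at a member matched a ZT22 or dhIDR loop at both anchors. How many of all ZT10 loops had a match in another library was not counted, so this gives no contrast with other genes.

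**Figure D4:**
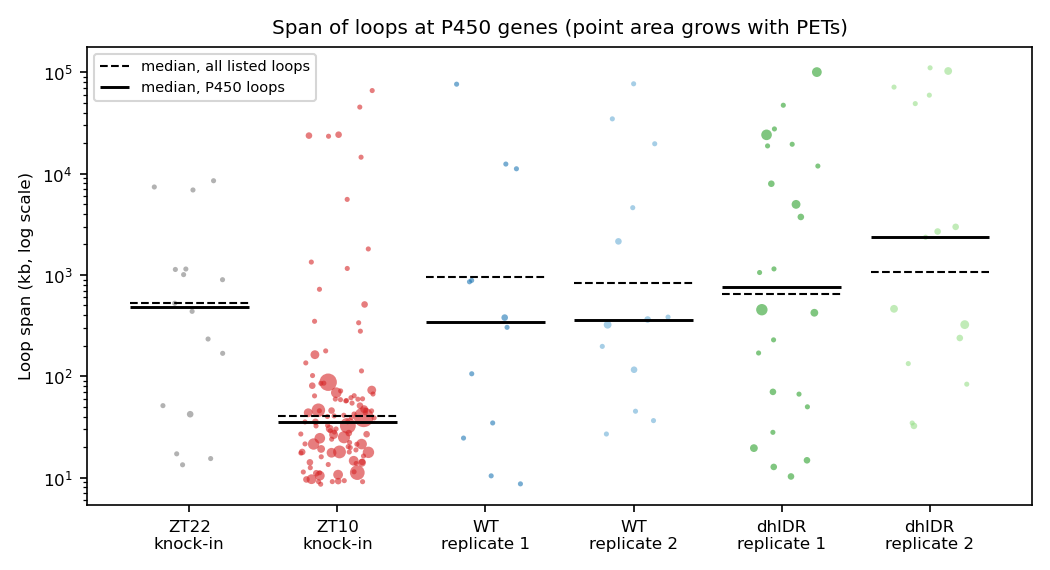
Span of each loop at a P450 gene (y axis, kb, log scale) by library (x axis), with point area growing with PETs, a solid line at the P450 median and a dashed line at the median of all listed loops. The ZT10 knock-in median is 35.5 kb, and the other 5 P450 medians lie between 341 and 2355 kb.

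Upstream sequence identity was set beside the PETs, with no test. Of 8 members at least 90% identical to another P450 gene over the 250 upstream bases, 4 had a ZT10 PET, with a median of 1.5 and a highest value of 16, at Cyp3a25. Of the 24 others 20 had one, with a median of 12 and a highest value of 52. The 8 were Cyp2b13, Cyp2b9, Cyp2a5, Cyp2a4, Cyp3a25, Cyp3a16, Cyp2c68 and Cyp2c69. How reads that map to several places were treated is not given in the sources used here, so values at close paralogs are uncertain, and the part of sequence identity in these counts was not tested.

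The comparison of WT with dhIDR asks whether the region removed in dhIDR changes the loops at these genes. P450 loops took 3.55 and 2.16 of every 10,000 listed PETs in the WT libraries and 5.60 and 3.49 in the dhIDR libraries. WT replicate 1 lay just above dhIDR replicate 2, so the groups overlapped here, although in 4 of 7 other settings of the loop or window rule both dhIDR libraries were above both WT libraries. The mean share was 0.0285% ± 0.00987 (SD, n = 2) in WT and 0.0455% ± 0.0150 (SD, n = 2) in dhIDR, with p = 0.667 in an exact two-sided permutation test whose smallest possible p is 0.333. A PET was listed at 8 and 14 of the 39 members in WT, where 49.7% and 63.5% of all genes had one, and at 20 and 14 in dhIDR, where 61.9% and 56.7% did.

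Per gene, edgeR's quasi-likelihood test with Benjamini-Hochberg adjustment called 1 of 4608 genes tested (0.0217%), Sfi1, which is no member, and 124 had an unadjusted p under 0.05. Of the 39 members only Cyp2c39 had enough PETs to be tested, with a log2 WT over dhIDR of 0.08 (SE 2.30, adjusted p = 0.99982). With each cluster summed, 3 of the 9 groups could be tested by edgeR, and 0 were called (1 had an unadjusted p under 0.05), where 0.0217% of that table was, nor did DESeq2 call any. Cyp2a/2b/2f2 had 0 and 3 PETs under WT and 23 and 15 under dhIDR, a log2 WT over dhIDR of -3.50 (SE 1.29), with an unadjusted p of 0.0205 and an edgeR adjusted p of 0.99967. The 8 dhIDR loops behind it included, in replicate 1, a 453 kb loop of 9 PETs from Cyp2b10 to Nlrp9c. The next strongest there had 7 PETs and spanned 100545 kb from Cyp2f2 to Bcl7c. In replicate 2 the strongest was a 463 kb loop of 5 PETs from Cyp2f2 to Akt2, and the longest spanned 2355 kb. Cyp4a had 3 and 4 PETs under WT and 14 and 16 under dhIDR, a log2 of -1.86 (SE 1.18, unadjusted p = 0.144 by edgeR). Cyp2c had 16 and 14 against 35 and 14, a log2 of -0.40 (SE 0.68).

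In share of listed PETs, WT and dhIDR did not overlap at 5 of the 9 groups. Both dhIDR libraries were above both WT libraries at Cyp2a/2b/2f2 and Cyp4a, where 14.5% of the 18946 genes with a PET in these libraries showed that order. Both WT libraries were above at Cyp1a, Cyp2d and Cyp3a, where 12% of genes showed that one. These percentages are over single genes, so they are no like background for summed groups. At Cyp2d the order rested on 3 PETs in each WT library against 0 in each dhIDR library. The lower WT and higher dhIDR shares per 10,000 were 0.441 and 0.392 at Cyp3a, and 0.343 and 0.224 at Cyp1a. Among the 33 members with a PET in these 4 libraries, 5 had dhIDR above (Cyp2a12, Cyp2c44, Cyp2c70, Cyp2f2 and Cyp4a14) and 1 had WT above (Cyp1a1). The first count is near the share of all genes and the second is below it. At such counts a difference at most single members was not detectable.

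Other genes of the pathway are given by how many had a listed PET at each time, where 52.1% of all genes did at ZT10 and 58.5% at ZT22. Of 41 matched further genes of families 1 to 4, 20 had one at ZT10 and 20 at ZT22, and Cyp4v3 led with 192 PETs at ZT10 and 3 at ZT22. Of 16 P450 genes outside these families, 9 had one at ZT10 and 14 at ZT22. They included the bile acid enzymes Cyp7a1, with 355 PETs at ZT10 and 3 at ZT22, and Cyp8b1, with 171 and 3, while the thromboxane synthase Tbxas1 had 75 and 33. Of 8 electron donors and haem or P450 partners, all 8 had one at ZT10 and 3 at ZT22. Cyb5a had 359 PETs at ZT10 and 10 at ZT22, Por 182 and 3, and Ephx1 153 and 0. Of 20 transcription factors of P450 genes, 19 had one at ZT10 and 14 at ZT22, with 325 and 15 PETs at Hlf, 321 and 7 at Nfil3, and 310 and 0 at Bcl6. The median gene had 120.5 ZT10 PETs among these factors, 55 among the partners and 9 among the 39 members.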

How the data were processed

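In-situ ChIA-PET loop lists of 6 anti-HA mouse liver libraries were used. The authors deposited, per library, anchor pairs with raw counts of PETs, not normalized or pooled. The submitters' processing notes name mm10 as the build. The aligner, duplicate filter and loop caller are not given in the sources used here. Coordinates are printed as deposited, and whether starts count from 0 or 1 is not stated. Groups came from the sample titles. Mitochondrial loops were left out.

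PETs were summed per RefSeq GRCm38.p6 gene over loops with an anchor overlapping the body plus 5 kb by at least 1 bp; neighbours share loops. WT and dhIDR were compared with edgeR 4.0.16 (quasi-likelihood, TMM, filterByExpr, Benjamini-Hochberg at 0.05), tested on simulated data, with DESeq2 1.42.0 as an alternative. Summed groups replaced their member genes in a second table. Knock-in libraries, 1 per time, were compared as ratios of shares of listed PETs at genes with at least 30 PETs, counts under 3 set to 3. Loops of different libraries matched when both anchors overlapped. Intervals are 95% exact (Clopper-Pearson or Poisson) and cover counting error only, since PETs amplified by PCR may not be independent. Same-numbered replicates were not paired. Values are given for every member with a PET, for the 3 strongest genes of each other list, and for the strongest loops of a group. The members and lists were chosen with earlier results of these data known. Alternatives varied the window, anchor width, span, PET minimum, scaling and libraries.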

Additional observations from a re-analysis of the deposited data

How the results depend on the processing

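No P450 group was called between WT and dhIDR under any of the 14 alternatives (with wide anchors none could be tested). The counts below give the settings that moved a value. Genes called numbered 3 with a 25 kb window, 0 with gene ends only, 0 with anchors of at least 700 bp, 0 with loops up to 2 Mb, 0 with loops of at least 4 PETs, 3 without the filter on low counts, and 2 to 7 with 1 library left out. Same-numbered libraries deviated with a correlation of 0.0100 over 4608 genes, so the numbers were not taken as pairs; with the replicate block edgeR called 1 gene and 0 P450 groups.

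Genes higher at ZT10 numbered 712 with anchors of at least 700 bp, 1333 with at least 4 PETs a loop and 1121 relative to the median ratio. Genes higher at ZT22 numbered 1388 with a 25 kb window, 12 with gene ends only, 104 with anchors of at least 700 bp, 395 with loops up to 2 Mb, 126 with at least 4 PETs, 1339 relative to the median ratio and 3569 from 10 PETs. Members higher at ZT10 were 7 of 8 with a 2 kb window (56.4% of all genes tested) and 12 of 12 with 25 kb (48.7%). They were 9 of 10 at 4-fold (41.9%), 1 of 2 with at least 4 PETs a loop (63.5%) and 15 of 21 from 10 PETs (32.0%). The last setting also had 2 members higher at ZT22. The others kept the minimum of 30 PETs, so their counts are no support for a direction.

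The ratio of P450 shares, ZT10 over ZT22, was 2.60 with a 25 kb window, 6.91 with gene ends only and 10.8 with at least 4 PETs, and could not be formed with wide anchors because ZT22 listed none. The WT minus dhIDR difference in share was -0.0169 percentage points, -0.0275 to -0.00632 with 1 library left out, and 0.0228 with anchors of at least 700 bp, which rests on 3 PETs. Of 7 alternatives with a permutation p, it was 0.333, the smallest possible, in 4 (2 kb and 25 kb windows, gene ends only, at least 4 PETs), where both dhIDR libraries lay above both WT libraries, and 0.667 or 1 in 3. Beyond the stated construction of each setting, the cause was not tested. Low counts limit all of this: 37 of 39 members had under 10 PETs in every library but ZT10.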
